A study of Mus musculus with 6 samples.

Results

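The plasminogen activator system was examined in mouse inner medullary collecting duct (IMCD) cells, an epithelial model of the kidney collecting duct. The genes were chosen by their place in the system: Plau and Plat, the urokinase and tissue plasminogen activators; Plaur, the urokinase receptor; and Serpine2 and Serpinb2, serpin inhibitors of the activators. Of these 5 genes, 4 had a probe set annotated to that gene alone, out of 22180 such genes on the array. Serpine2 had none and was not analysed here. Plau, Plat and Plaur were bright enough to pass a filter that left out the dimmest 40% of genes, and so belonged to the 13308 genes tested, while Serpinb2 was left out by it.

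The cells came from lines made with a lentiviral vector that encodes GFP with either the ILK missense variant T173I (3 arrays) or wild-type ILK (3 arrays). Integrin-linked kinase (ILK) is a scaffold protein of adhesions, where it ties integrins to actin. Every culture was treated with EGF, 20 ng/ml over 15 minutes, then kept for 1 hour before harvest, so neither unstimulated cells nor cells without an ILK vector were part of the comparison. The sources used here do not say how many lines or clones stand behind the 3 arrays of a group, so line and variant cannot be told apart, and p-values measure the spread between these arrays. No probe set is annotated to Ilk alone, and its level was not read.

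Urokinase and tissue activator are serine proteases that cut plasminogen into plasmin, which digests fibrin, activates growth factors and opens the extracellular matrix. The urokinase receptor is a glycolipid-anchored protein that holds urokinase at the cell surface, binds vitronectin and signals through integrins. Serpinb2 (PAI-2) and Serpine2 (protease nexin-1) trap the activators. Tubule cells of the kidney secrete urokinase into urine, and growth factor signalling through ERK and AP-1 is a known inducer of the Plau and Plaur genes.

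Pearson correlations between arrays over the tested genes were 0.964 to 0.983 within T173I and 0.989 to 0.993 within wild type. T173I replicate 1 correlated better with the wild-type arrays (mean 0.988) than with the other T173I arrays (mean 0.972), and T173I replicate 2 had the lowest mean correlation with the wild-type arrays (0.964). Results are therefore also given without single arrays. Array medians were 5.45 to 5.52 on the log2 scale. All 8 epithelial markers passed the filter, and their mean log2 signal was 10.2 to 10.5 on T173I arrays and 9.91 to 10.03 on wild-type arrays. Within that list the differences ran from 1.62 for Krt19, 0.64 for Krt8, 0.55 for Cldn4 and 0.44 for Krt18 to -0.17 for Epcam and -0.20 for Grhl2. Of 10 principal cell markers 6 passed, while Aqp3, Aqp4, Scnn1b and Elf5 did not. The principal cell list averaged 5.55 to 5.91 on T173I arrays and 5.93 to 6.003 on wild-type arrays. Its tested genes differed by -1.19 for Scnn1g, -0.78 for Gata3 and -0.30 for Avpr2. The others were at -0.076 for Hsd11b2, -0.048 for Scnn1a and 0.041 for Aqp2.

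The urokinase receptor had the largest difference among the members, and the sequence before its start is shown because it holds a motif of AP-1, the dimer of Fos and Jun family proteins that EGF signalling activates. The sequences of Anxa2 and F3 are shown beside it. Anxa2, a plasminogen binder, was the pathway gene with the largest positive difference. F3, tissue factor, was the only 1 of the 22 tested pathway genes whose T173I arrays all lay below the wild-type arrays. Of all tested genes 7.95% had that arrangement. Each run is the 250 bases before the RefSeq start on the gene's own strand in build GRCm38.p6, and capitals mark matches to the AP-1 motif TGANTCA.
Plaur, chr7:24462233-24462482, plus strand: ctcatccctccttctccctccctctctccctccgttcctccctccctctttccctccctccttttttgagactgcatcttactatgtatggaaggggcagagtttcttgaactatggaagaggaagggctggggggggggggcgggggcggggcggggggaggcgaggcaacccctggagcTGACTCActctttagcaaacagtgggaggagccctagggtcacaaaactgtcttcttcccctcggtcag
Anxa2, chr9:69453433-69453682, plus strand: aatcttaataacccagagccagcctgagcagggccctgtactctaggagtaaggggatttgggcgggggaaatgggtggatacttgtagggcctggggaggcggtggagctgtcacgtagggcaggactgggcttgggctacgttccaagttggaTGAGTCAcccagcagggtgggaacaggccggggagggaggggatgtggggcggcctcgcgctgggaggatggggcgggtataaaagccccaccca
F3, chr3:121723287-121723536, plus strand: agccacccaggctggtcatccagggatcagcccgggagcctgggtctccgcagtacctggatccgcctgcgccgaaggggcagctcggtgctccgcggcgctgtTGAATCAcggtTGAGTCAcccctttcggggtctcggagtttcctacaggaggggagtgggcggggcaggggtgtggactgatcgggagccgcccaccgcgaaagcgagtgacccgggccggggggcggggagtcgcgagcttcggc

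The motif occurred 1 time for Plaur, beginning 69 bases before the start, 1 time for Anxa2, beginning 95 bases before it, and 2 times for F3. TGANTCA was searched on both strands and reads the same on each. It was found in 6.75% of the 32851 windows of this length in the RefSeq table. The Sp1 box GGGCGG, searched on both strands, had 3 matches in each of these windows and was present in 32.7% of all windows. CCGGAA, an Ets motif also searched on both strands and present in 12% of windows, had no match in any of them. No match overlapped a match of another motif. These 3 genes were picked by their differences, and the Plaur sequence is shown also for its motif. Their matches therefore cannot be set against the shares over all windows. A match is a description of the sequence only. The table held windows for 3 of the 5 members. Both windows listed for Serpinb2 had 1 match to TGANTCA, the window of Serpine2 had 0, and Plau and Plat had no window.

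Plau, which encodes urokinase, had a log2 signal of 8.97, 10.60 and 9.55 on T173I replicates 1, 2 and 3, against 9.33, 9.28 and 9.16 on wild-type replicates 1, 2 and 3. T173I replicates 2 and 3 lay above every wild-type array and T173I replicate 1 below every one, so the groups overlapped. The mean was 9.71 ± 0.83 in T173I and 9.25 ± 0.088 in wild type (SD, n = 3 each). The wild-type arrays spanned 0.17 log2 units, while the T173I arrays spanned 1.63. The difference, T173I minus wild type, was 0.45 with a 95% interval of -0.45 to 1.36 and was smaller than the spread between T173I arrays (limma adjusted p = 0.67; exact two-sided permutation p = 0.5). Relative to the wild-type mean, the 3 T173I arrays stood at -0.28, 1.35 and 0.29.

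Plat, which encodes tissue plasminogen activator, had a log2 signal of 7.20, 8.27 and 7.27 on the T173I replicates, against 6.81, 7.42 and 7.65 on the wild-type replicates. Only T173I replicate 2 lay outside the wild-type range. The mean was 7.58 ± 0.60 in T173I and 7.30 ± 0.43 in wild type (SD, n = 3 each). The difference was 0.28 with a 95% interval of -0.53 to 1.09, within the spread of both groups (limma adjusted p = 0.76; exact two-sided permutation p = 0.6). Without T173I replicate 2 it was -0.061, without wild-type replicate 1 it was 0.042, and without T173I replicate 1, T173I replicate 3 or wild-type replicate 3 it was 0.44 to 0.47.

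Plaur, which encodes the urokinase receptor, had a log2 signal of 8.93, 10.73 and 10.13 on the T173I replicates, against 8.01, 8.76 and 8.78 on the wild-type replicates. All 3 T173I arrays lay above all 3 wild-type arrays. The nearest arrays of the groups, T173I replicate 1 and wild-type replicate 3, were close together, at 8.93 and 8.78. The mean was 9.93 ± 0.92 in T173I and 8.52 ± 0.44 in wild type (SD, n = 3 each), a 2.66-fold difference. On the log2 scale this was a difference of 1.41 (95% interval 0.31 to 2.51). It did not pass the adjusted threshold of 0.05 (limma adjusted p = 0.45; exact two-sided permutation p = 0.1, the smallest that 3 arrays against 3 can give).

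**Figure D1:**
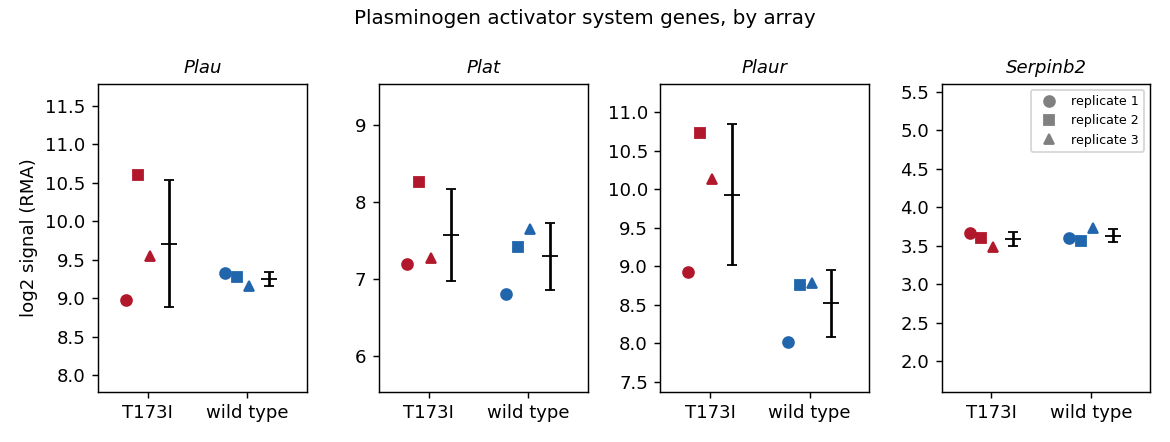
Log2 signal of the 4 measured members on each array (symbols give the replicate number), T173I left of wild type, with bars for the mean and SD (n = 3). All panels span the same number of log2 units. The T173I points of Plaur (8.93 to 10.73) all lie above its wild-type points (8.01 to 8.78), those of Plau lie on both sides of the wild-type points, those of Plat overlap them except for replicate 2, and Serpinb2 is near 3.6 throughout.

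Relative to the wild-type mean, Plaur stood at 0.41, 2.21 and 1.61 on T173I replicates 1, 2 and 3. The order of the T173I arrays was the same for the receptor and both activators, with replicate 2 highest, replicate 3 between and replicate 1 lowest. The wild-type arrays had no such shared order: wild-type replicate 1 was the highest for Plau and the lowest for Plat and Plaur. For Plat, T173I replicates 1 and 3 were close, at 7.20 and 7.27. The T173I order was not particular to the members: Anxa2, S100a10, Pdgfc and Thbd had it too, while Hgfac and Vldlr did not. Its share over all tested genes was not counted. The differences of Plaur and Plau overlapped in their intervals, and the difference between them was not tested.

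Among all 13308 tested genes, the Plaur difference ranked 25 from the top, and 0.383% of genes had a difference of larger size. Plau ranked 427 and Plat 1028, and larger differences in size were seen in 7.09% and 17.2% of genes. The median difference over all tested genes was -0.011. By limma's p, Plaur was at rank 578. Of the 3 tested members 0 had a limma adjusted p under 0.05, as did 0% of all tested genes. Differences were positive for all 3, and for 47.4% of tested genes. At an unadjusted p under 0.05, 1 member was higher in T173I, against 4.88% of tested genes in that direction. The groups did not overlap, with T173I higher, for 1 member and for 7.23% of tested genes. The brightness filter uses the mean of all arrays, and the 3 members above it are not all members.

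**Figure D2:**
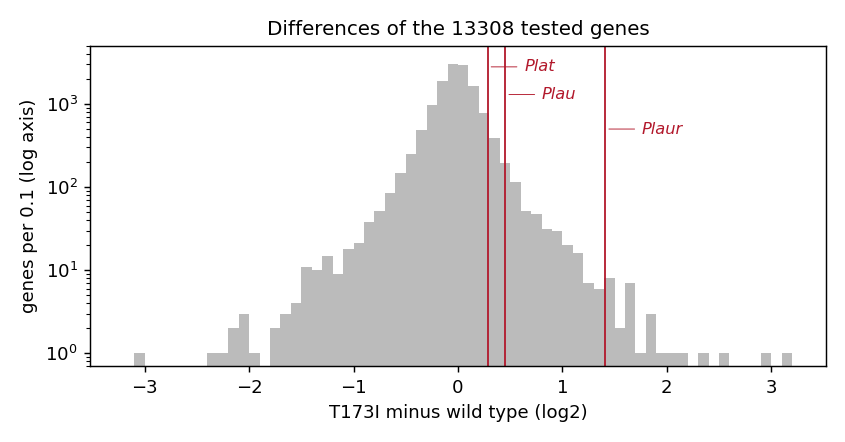
Histogram of the differences, T173I minus wild type, of the 13308 tested genes (horizontal axis in log2 units, bins of 0.1, number of genes on a log axis), with lines for the 3 tested members. Plaur at 1.41 lies in the right tail, and Plau at 0.45 and Plat at 0.28 lie on its inner slope.

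The size of the Plaur difference depended on which array was left out, but its sign did not. Without T173I replicate 1 it was 1.91 (95% interval 1.18 to 2.65; limma adjusted p = 0.056), and 156 genes, 1.17% of those tested, then passed the threshold, Plaur not among them. Without T173I replicate 2 it was 1.01 (limma adjusted p = 0.66), without T173I replicate 3 it was 1.31, and without wild-type replicate 1 it was 1.16. For Plau, leaving out T173I replicate 1 gave 0.82, and leaving out T173I replicate 2 gave 0.0062, so that the mean of T173I replicates 1 and 3 was at the wild-type mean.

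**Figure D3:**
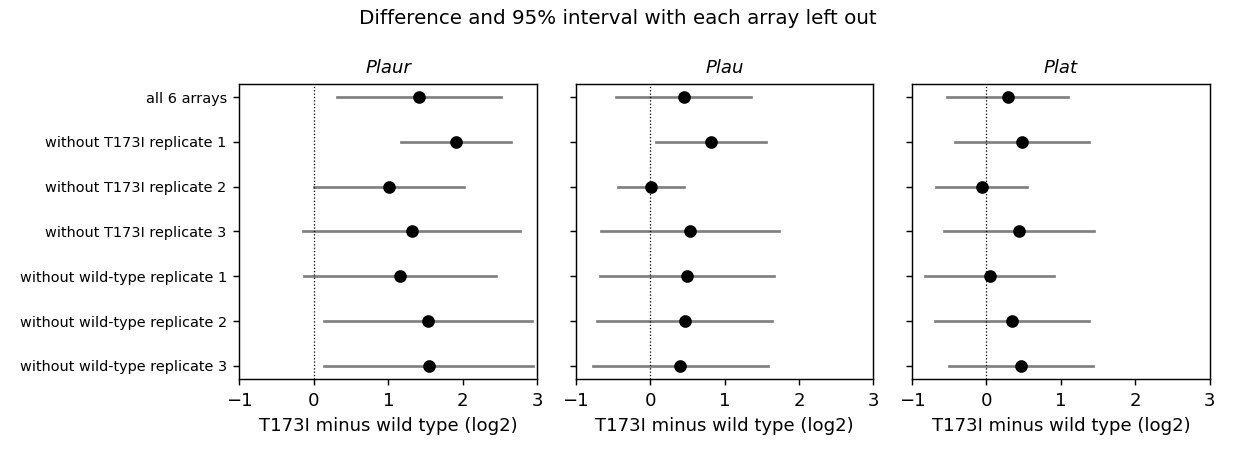
Difference, T173I minus wild type (log2), and its 95% limma interval for Plaur, Plau and Plat with all 6 arrays and with each array left out. Plaur stays at 1.01 to 1.91, while Plau drops to 0.0062 and Plat to -0.061 without T173I replicate 2.

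Serpinb2, the intracellular and secreted serpin PAI-2, had a log2 signal of 3.67, 3.60 and 3.49 on the T173I replicates, against 3.60, 3.56 and 3.73 on the wild-type replicates. These were dim values in both groups: the gene's mean over all arrays was 3.61, below the filter limit of 5.37, and 9.72% of the 22180 genes were dimmer. The mean was 3.59 ± 0.093 in T173I and 3.63 ± 0.086 in wild type (SD, n = 3 each; exact two-sided permutation p = 0.6). In the fit without the filter the difference was -0.042 with a 95% interval of -0.25 to 0.17 (limma adjusted p = 0.89). A second probe set lists Serpinb2 together with Serpinb10, a neighbouring serpin gene, and was not used.

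Other genes of the system were read from a list of 40 genes ordered by role. A value was available for 36, and 22 passed the filter. None of the 22 had an adjusted p under 0.05 in the limma fit, which called 0% of all genes. At an unadjusted p under 0.05, 2 were higher in T173I and 1 was lower, against 4.88% and 5.31% of all tested genes. The groups did not overlap for 3 with T173I higher and 1 with it lower, against 7.23% and 7.95% of all tested genes. Differences were positive for 9 of the 22 and negative for 13, against 6306 positive and 7002 negative of all tested genes. Their median was -0.058, against -0.011 over all tested genes.

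Among plasminogen binders of the cell surface, Anxa2 had a difference next in size to that of the receptor. It encodes annexin A2, a membrane-binding protein that forms a complex with S100A10 and concentrates plasminogen and tissue activator. Its log2 signal was 9.64, 10.72 and 10.31 on the T173I replicates, against 8.67, 9.09 and 9.33 on the wild-type replicates, with no overlap between the groups. The difference was 1.20, or 2.30-fold, with a 95% interval of 0.49 to 1.91 (limma adjusted p = 0.45; 0.054 without T173I replicate 1). It was 0.95 to 1.49 with single arrays left out. S100a10, which encodes the plasminogen-binding partner of annexin A2, was at 10.49, 11.30 and 10.90 on the T173I replicates, against 10.40, 10.50 and 10.39 on the wild-type replicates. T173I replicate 1 lay within the wild-type range of S100a10, and the difference was 0.47 (95% interval -0.0030 to 0.94). It was 0.27 without T173I replicate 2. Plgrkt, a transmembrane plasminogen receptor, had a difference of -0.11, with -0.17 when T173I replicate 1 and -0.026 when T173I replicate 2 was left out. Plg, plasminogen itself, was dim, at 5.00 to 5.21 on T173I arrays and 4.78 to 5.14 on wild-type arrays, and was not tested.

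Inhibitors of the system other than the members were mostly dim. Of 8 listed, 7 had a value and 1 was tested: Serpinf2, alpha-2-antiplasmin, which had a difference of 0.061 (95% interval -0.21 to 0.33). Serpina5, Serping1, Serpini1, A2m, Tfpi and Tfpi2 were below the filter limit.

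Of 8 receptors and partners that clear or bind components of the system, 6 were tested. Lrp1, the endocytic receptor that takes up urokinase bound to its inhibitor and receptor, was at 6.81 ± 0.25 in T173I and 6.80 ± 0.40 in wild type (SD, n = 3 each), a difference of 0.0091 that changed sign with single arrays left out (-0.17 to 0.23) and with repeated quantile normalization (-0.012). Vldlr, a related receptor, had a difference of -0.27. T173I replicate 1 lay above its wild-type range at 10.52, and replicates 2 and 3 lay below it at 9.35 and 9.71. Leaving out T173I replicate 1 gave -0.60, and leaving out T173I replicate 2 gave -0.010. Lrpap1, the chaperone of these receptors, had a difference of -0.21, or -0.33 without T173I replicate 1. Lrp2, megalin, a further clearance receptor, had a mean below the filter limit and was not tested. Its log2 signal was 5.37, 4.83 and 4.79 on the T173I replicates, against 5.42, 5.53 and 5.45 on the wild-type replicates, with no overlap. Thbd, thrombomodulin, a thrombin receptor on cell surfaces, was at 6.10, 7.16 and 6.20 on the T173I replicates, against 5.74, 6.02 and 6.01 on the wild-type replicates. Its groups did not overlap, and the difference was 0.56 (95% interval -0.11 to 1.23), or 0.23 without T173I replicate 2.

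Proteases of the cascade and their inhibitors included members of both signs. Hgfac, the serine protease that activates hepatocyte growth factor, was at 6.93, 6.87 and 7.10 on the T173I replicates, against 6.12, 6.66 and 6.36 on the wild-type replicates. The T173I arrays were alike and lay above all wild-type arrays, a difference of 0.59 (95% interval 0.23 to 0.95; limma adjusted p = 0.45). Prss8, prostasin, a membrane-anchored protease of tight epithelia, was at 9.98, 8.95 and 9.87 on the T173I replicates, against 10.50, 10.33 and 9.98 on the wild-type replicates. The groups met at 9.98, and the difference was -0.67 (95% interval -1.36 to 0.020), or -0.35 without T173I replicate 2. Spint2, a Kunitz inhibitor of such membrane proteases, had a difference of -0.21, with -0.37 when T173I replicate 1 and -0.021 when T173I replicate 2 was left out. Hpn, hepsin, a protease that can activate urokinase, had a difference of 0.056.

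Substrates, growth factors and receptors of the system also had both signs. Pdgfc, a growth factor whose CUB domain is removed by tissue activator or plasmin, was at 7.07, 9.01 and 8.38 on the T173I replicates, against 7.37, 7.26 and 7.37 on the wild-type replicates. T173I replicate 1 lay below and replicates 2 and 3 above every wild-type array, the same arrangement as for Plau. The difference of Pdgfc was 0.82 (95% interval -0.26 to 1.90; limma adjusted p = 0.54). Without T173I replicate 1 it was 1.36 and passed the threshold (limma adjusted p = 0.046), the only 1 of the 22 listed genes to do so with an array left out, and without T173I replicate 2 it was 0.39. Pdgfd, a relative that urokinase can activate, had a difference of -0.25, with -0.048 when T173I replicate 3, -0.14 when wild-type replicate 1 and -0.39 when wild-type replicate 3 was left out.

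F3, tissue factor, the cell surface starter of coagulation, was at 11.81, 11.85 and 11.76 on the T173I replicates, against 12.67, 12.10 and 12.03 on the wild-type replicates. All T173I arrays lay below all wild-type arrays, which 7.95% of tested genes also showed, and T173I replicate 1 was as far below as the others. The difference of F3 was -0.46 with a 95% interval of -0.88 to -0.049 (limma adjusted p = 0.48), and it was -0.26 without wild-type replicate 1, the highest array. F2r, the thrombin receptor PAR1, had a difference of -0.016.

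**Figure D4:**
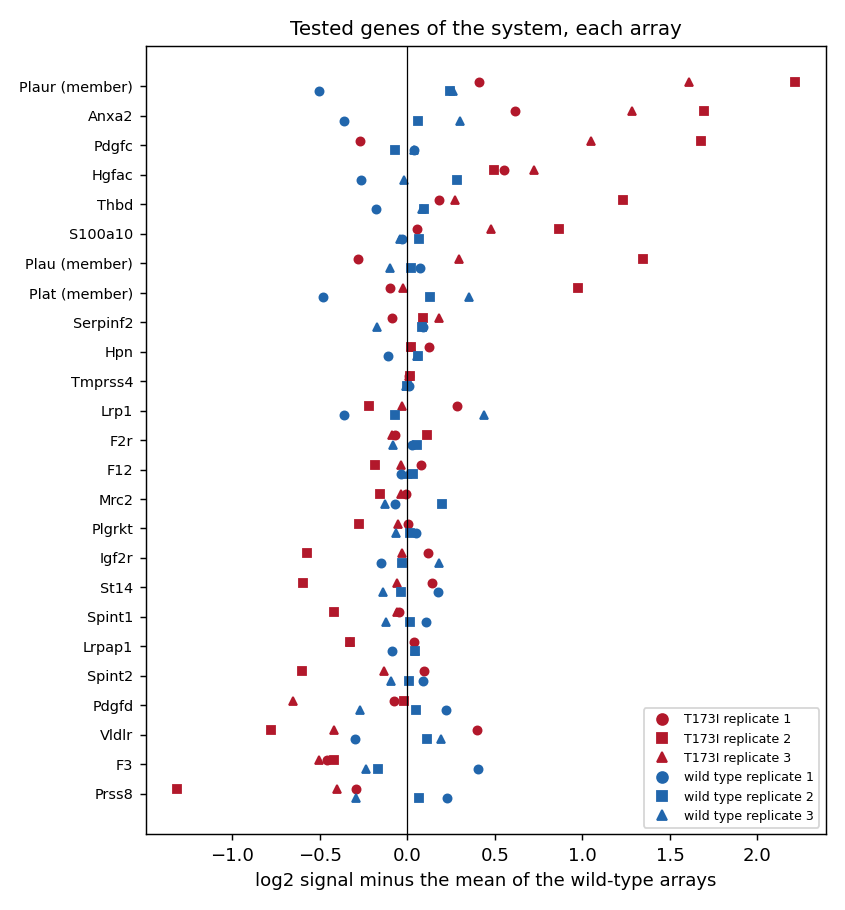
Log2 signal of each array minus the mean of the wild-type arrays, for the 3 tested members and the 22 tested genes of the list, ordered by difference, with T173I in red above wild type in blue. T173I replicate 2 (square) is the farthest right for Plaur, Anxa2, Pdgfc, Thbd, S100a10, Plau, Plat, F2r and Tmprss4. It is the farthest left for Prss8, Vldlr, Spint2, St14, Igf2r, Spint1, Plgrkt, F12 and Mrc2.

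The tested genes with the profile nearest to Plaur over the 6 arrays were Cav1, Trim16 and Cd44. Likeness was measured as the root mean square distance between log2 profiles after the gene's own mean was subtracted. Cav1, caveolin-1, a coat protein of caveolae, lay at a distance of 0.092 log2 units, Trim16, a tripartite motif ubiquitin ligase, at 0.14, and Cd44, the hyaluronan receptor, at 0.15. Cav1 was at 8.55, 10.25 and 9.45 on the T173I replicates, against 7.53, 8.19 and 8.21 on the wild-type replicates. Its difference was 1.44, against 1.38 for Trim16 and 1.41 for Cd44, and none of the 3 passed the threshold (limma adjusted p = 0.45, 0.45 and 0.46).

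Nearest to Plau were Prdm8, a chromatin regulator, at 0.10, Dusp3, a dual-specificity phosphatase, at 0.12, and Csrnp1, a nuclear protein induced by growth signals, at 0.13. Nearest to Plat were Tnfaip2 at 0.13, the chaperone Hsph1 at 0.14 and the receptor kinase Axl at 0.14. Between members, Plau and Plat lay at 0.36, Plau and Plaur at 0.59, and Plat and Plaur at 0.66. The neighbours were picked as the nearest of all tested genes, so their shorter distances were set by that choice. The distance between tested genes in general was not measured. The 6 points of each profile share T173I replicate 2 as a high array, and nearness over 6 arrays describes these arrays only.

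**Figure D5:**
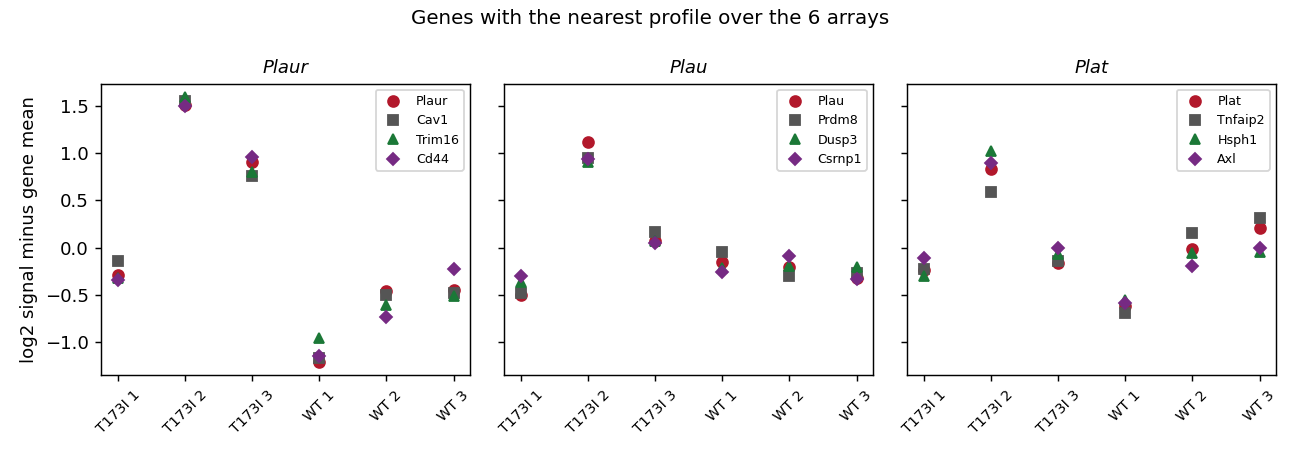
Log2 signal minus the gene's mean over the 6 arrays for Plaur, Plau and Plat (red circles) and the 3 tested genes nearest to each. The genes near Plaur are high on T173I replicates 2 and 3 and lowest on wild-type replicate 1, and those near Plau are high on T173I replicate 2.

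Macrophages, fibroblasts and endothelial cells also make components of this system, so their markers were read on the same arrays. Of 6 macrophage markers 2 passed the filter, Cd68 and Csf1r, while Ptprc, Adgre1, Itgam and Lyz2 lay below its limit. Cd68, also a lysosomal protein, was at 9.04 ± 0.62 in T173I and 7.94 ± 0.42 in wild type (SD, n = 3 each), and Csf1r was at 5.99 ± 0.50 in T173I and 6.77 ± 0.24 in wild type (SD, n = 3 each). Cd68 was the brightest of the 6 macrophage markers on every array and so weighed most in their sum. Their summed linear signal was 529 to 953 on T173I arrays and 366 to 510 on wild-type arrays. Their mean log2 signal overlapped, at 5.44 to 5.61 on T173I arrays and 5.32 to 5.61 on wild-type arrays, and Cd68 and Csf1r differed in opposite directions with no overlap between the groups. The part of this in the Plaur difference was not tested. Of 8 fibroblast markers 3 passed the filter, with a sum over the list of 317 to 321 on T173I arrays and 313 to 338 on wild-type arrays. Of 6 endothelial markers 0 passed. In bulk RNA, fewer cells of a type and less RNA per cell cannot be told apart.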

How the data were processed

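RNA of 3 T173I and 3 wild-type samples was measured on 1 Affymetrix whole-transcript array each. The deposited log2 values were made by the authors with RMA, which corrects background, normalizes and summarises probe sets, per the submitters' processing notes. No source used here gives its version. RMA equalises arrays, which would hide a shift of most genes. The number of arrays limits the precision.

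Of 41345 probe sets, the platform annotation gives 1 symbol to 23521, several to 1814 and none to the other 16010. The brightest single-symbol probe set stood for a gene. The dimmest 40% of genes were left out. T173I was compared with wild type in limma 3.58.1 (R 4.3.3) with lmFit and eBayes, two-sided, with Benjamini-Hochberg adjustment over 13308 genes. The script was tested on simulated data. Named pathway genes were up to 2 with the highest and 2 with the lowest difference per role. Profile neighbours were the 3 nearest tested genes of each member that ranged over at least 1 log2 unit, without predicted and RNA genes. Markers were read by list. 1 further gene, left out of the pathway list of 40, is not reported here. Members and lists were chosen with earlier results of these data known. Over all tested genes, same-numbered arrays did not deviate together (correlations 0.049, 0.067 and 0.048), and numbers were not treated as pairs. Single genes can differ from this: replicate 1 was the lowest array of both groups for Plaur and Plat, but not for Plau. Alternatives covered the filter, prior, normalization, probe set rule, weights, replicate block and each array left out. Promoter windows came from RefSeq (GRCm38.p6).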

Additional observations from a re-analysis of the deposited data

How the results depend on the processing

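With each array left out in turn, the differences were 1.01 to 1.91 for Plaur, 0.0062 to 0.82 for Plau, -0.061 to 0.47 for Plat and -0.083 to 0.0079 for Serpinb2, so the last 2 changed sign. The other settings gave 1.41 to 1.45 for Plaur, 0.34 to 0.45 for Plau, 0.075 to 0.30 for Plat and -0.075 to -0.042 for Serpinb2. No member passed the adjusted threshold under any alternative run. The limma adjusted p of Plaur was 0.056 to 0.84. With the replicate block the adjusted p of Plaur was 0.22. Its unadjusted limma p was then 0.0012, against 0.020 in the main fit. The labels do not say what arrays of the same number share beyond that number. Called genes numbered 0 to 156 over all genes and 0 to 1 in the pathway list with single arrays left out, the highest without T173I replicate 1, and 0 under every other setting, the replicate block (0) included. At an unadjusted p under 0.05 the count over all genes was 1357, and 2946 without T173I replicate 1, 2856 with array weights and 670 without wild-type replicate 1. The cause was not tested. Of 202 alternatives for the 16 named pathway genes, 9 changed sign, in 4 genes with small differences. With single arrays left out Lrp1 ranged from -0.17 to 0.23, Serpinf2 from -0.027 to 0.13, Hpn from -3.3e-05 to 0.086 and F2r from -0.081 to 0.020, and Lrp1 was -0.012 after repeated quantile normalization. Each measured member has 1 single-symbol probe set, so taking the mean of probe sets left its difference unchanged. With 3 arrays against 3, a difference the size of Plau's was within the spread of the T173I arrays.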
